A study of Mus musculus with 4 samples.

Results

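The genes that write, erase and read 5-methylcytosine in DNA were followed in splenic B cells with and without NSD1. They were taken by gene symbol from the deposited counts and are the methyltransferases *Dnmt1*, *Dnmt3a* and *Dnmt3b*, the oxidases *Tet1*, *Tet2* and *Tet3*, the hemimethylated DNA reader *Uhrf1*, and the methyl-CpG readers *Mbd1* and *Mbd2*. These are 9 of the 55401 genes listed, and each symbol was found once. Splenic B220+ B cells of C57BL/6J mice were isolated by sorting and profiled in 4 RNA-seq libraries, 2 of NSD1B WT (Mb1-Cre+ NSD1+/+) and 2 of NSD1B KO (Mb1-Cre+ NSD1fl/fl). All 4 libraries thus carry the Mb1-Cre driver, which is active from the earliest B cell stages through the *Cd79a* locus, and only the NSD1B KO libraries carry the floxed *Nsd1* allele, in which exons 6 to 8 are flanked by loxP sites. The Methods describe littermate controls of both sexes, aged 7 to 9 weeks, and the sources used here do not say which mouse or how many mice stand behind a library. If both libraries of a genotype came from 1 preparation, the p-values below measure technical spread only.

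DNA methylation in mammals is kept through cell division by DNMT1, which copies the mark onto the new strand at sites where UHRF1 binds hemimethylated CpG. DNMT3A and DNMT3B set the mark on unmethylated DNA, and both carry a PWWP domain that binds methylated lysine 36 of histone H3, the residue on which NSD1 acts. The TET enzymes oxidise 5-methylcytosine as the first step of its removal. MBD1 and MBD2 bind methylated CpG and recruit repressors, MBD2 as a part of the NuRD complex. The question of the comparison was therefore whether the transcripts of this machinery differed between NSD1B KO and NSD1B WT B cells. Neither DNA methylation nor H3K36 methylation was measured in these libraries.

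The libraries held between 6769118 and 7566834 counts on genes. The B cell markers were present in all of them, with 11177 to 12838 CPM (counts scaled by the size of the library) summed over 8 genes. The sum rests mostly on *Cd79b* (6863 and 6771 CPM in NSD1B WT, 8525 and 7774 CPM in NSD1B KO), which was not called, and hides members that changed. In NSD1B KO 5 of the 8 were lower and *Ebf1* was higher, by 1.68-fold. These calls use the limits given below, which 41.1% of all 11657 tested genes passed as lower and 37.1% as higher. The calls in every marker list here are to be read against those shares. *Cd79a*, the locus of the Cre driver, had 14544 and 14192 counts in NSD1B WT and 5831 and 5166 in NSD1B KO, 2.52-fold lower, and *Pax5* had 279 and 342 against 30 and 31. *Ms4a1* was 1.49-fold lower, and *Ptprc*, which encodes B220, was 1.41-fold lower. Markers of other cells were found as well. The 8 myeloid markers summed to 4564 and 4668 CPM in NSD1B WT and to 6075 and 5727 CPM in NSD1B KO, most of it *Lyz2*, with *Mpo* at 0. Of the 7 tested, 5 were higher, among them *Csf1r* (23 and 27 counts against 375 and 335). The other 2 were lower, *Itgam* (487 and 615 against 273 and 334) and *S100a8* (39 and 28 against 0). The 6 erythroid markers summed to 39.6 and 35.5 CPM in NSD1B WT and to 1942 and 1688 CPM in NSD1B KO. The 8 T cell markers summed to 66.7 CPM in each NSD1B WT library and to 105 and 95.3 CPM in NSD1B KO, with *Cd4* and *Cd8a* at 0. Of the 5 tested, 4 were higher, beside 37.1% of all tested genes. Among them was *Trbc1* (7 and 7 counts against 131 and 108), while *Trac* was lower (183 and 214 counts against 92 and 64). The 5 NK cell markers summed to 55.8 and 59.6 CPM against 88.4 and 88.3 CPM, with *Ncr1* and *Gzma* at 0. Most of this sum was *Nkg7*, which was higher (373 and 415 counts against 575 and 536). *Klrd1* was higher as well (0 against 62 and 59), and *Klrb1c* was lower (26 and 21 against 0). The 4 markers of plasmacytoid dendritic cells, which also carry B220, had *Siglech* and *Pacsin1* at 0, and their sum of 63.0 to 106 CPM was almost all *Bst2*. The 5 plasma cell markers summed to 230 to 273 CPM, with *Sdc1* at 0. Of the 4 tested, 2 were higher, among them *Prdm1* (17 and 21 counts against 59 and 52), and 2 were lower, among them *Jchain* (1027 and 923 against 676 and 617). The Methods report that RNA was taken only from cells sorted to high purity. What part cells of these kinds had in the values below was not tested, and in sorted bulk cells a lower level of a transcript per cell and fewer cells with it cannot be told apart. A further property of these libraries touches every gene of modest level. Between the 2 libraries of a genotype, 0 genes had no count in one and 25 or more in the other, and between libraries of different genotype the number was 1816 to 1852. Of the genes with at least 50 counts over the NSD1B WT libraries 11.1% were at 0 in both NSD1B KO libraries, and the reverse was found for 7.93%.

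Of the 9 genes, 7 passed the filter on low counts and could be tested, and *Dnmt3b* and *Uhrf1* had no count in any library. In edgeR's quasi-likelihood test, at limits of 0.05 on the adjusted p and 1.2 on the fold change, 2 of the 7 were higher in NSD1B KO (*Dnmt3a* and *Mbd1*) and 5 were lower (*Dnmt1*, *Tet1*, *Tet2*, *Tet3* and *Mbd2*). These counts have to be read against the whole comparison, in which 78.2% of 11657 tested genes passed the same limits, 37.1% higher and 41.1% lower. Among the 3640 tested genes with a mean level within the range of the 7 members, 80.1% passed, 36.8% higher and 43.3% lower. A passed limit is therefore nothing particular to this machinery, and what follows describes the direction and size of each change. Large sizes were common as well. A call with a log2 fold change above 2 in size, as for *Dnmt3a*, *Tet1*, *Tet2* and *Mbd1*, was found for 35.6% of all tested genes. Among the 3640 genes of similar level it was found for 33.3%. The CPM of the genotypes did not overlap in any of the 7 genes, as in 88.1% of tested genes (41.8% with NSD1B KO higher, 46.2% with it lower). The median log2 fold change of the 7 was -0.72, against -0.10 for all tested genes.

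**Figure D1:**
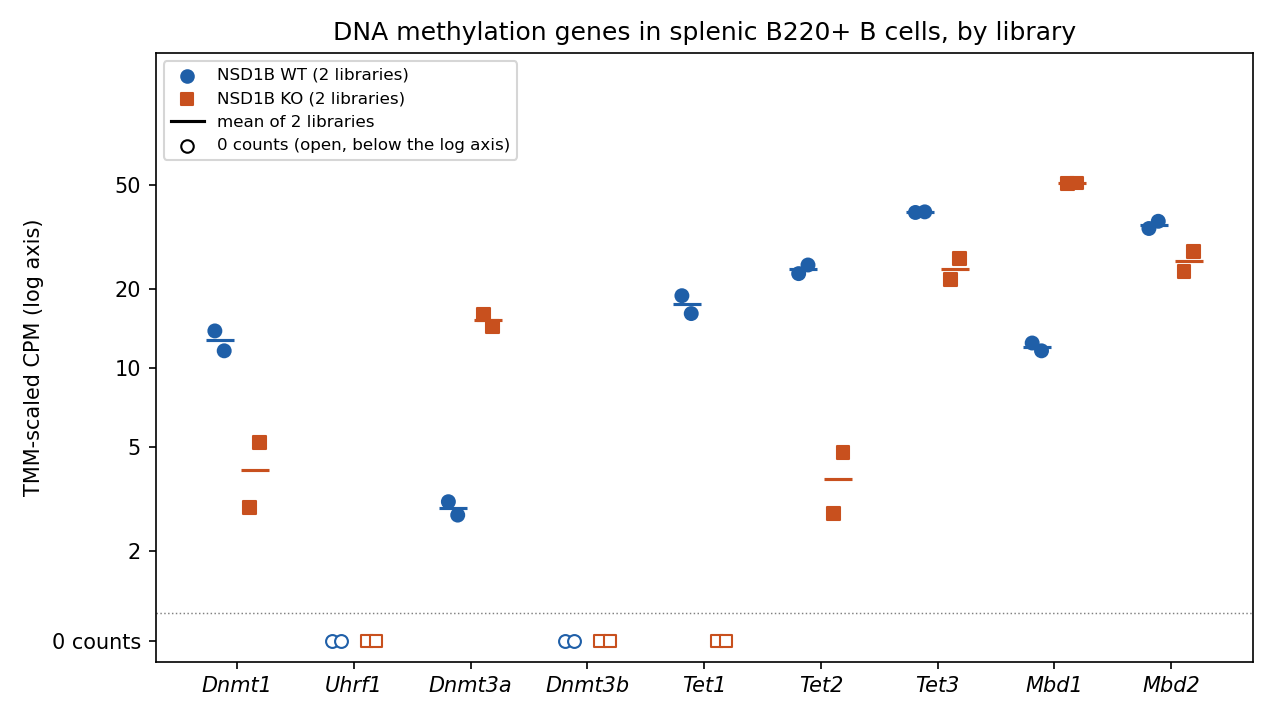
CPM scaled by the TMM method on a log axis for the 9 genes, with 1 point per library, circles for NSD1B WT, squares for NSD1B KO and a line at the mean of 2 libraries. *Dnmt3a* and *Mbd1* sit higher in NSD1B KO, *Dnmt1*, *Tet2*, *Tet3* and *Mbd2* sit lower, and open symbols below the axis mark libraries with 0 counts (*Tet1* in NSD1B KO, *Uhrf1* and *Dnmt3b* in all 4).

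*Dnmt1* (ENSMUSG00000004099.16), the maintenance methyltransferase, is a minus-strand gene of chromosome 9, between 20907209 and 20959888 (mm10, GENCODE M21). It had 99 and 85 counts in the NSD1B WT libraries and 21 and 35 in the NSD1B KO libraries. Both NSD1B KO values lay far below the lower NSD1B WT value, and the 2 NSD1B KO libraries differed from each other more than the 2 NSD1B WT libraries did. The scaled levels were 12.7 ± 1.57 CPM in NSD1B WT and 4.06 ± 1.61 CPM in NSD1B KO (mean ± SD, n = 2 libraries). Its log2 fold change of NSD1B KO over NSD1B WT was -1.65 (95% interval -2.24 to -1.07, adjusted p = 1.31e-06, edgeR's quasi-likelihood test), about 3.15-fold lower. Without NSD1B KO replicate 1 the value was -1.29 and without NSD1B KO replicate 2 it was -2.11.

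*Uhrf1* (ENSMUSG00000001228.14), which brings DNMT1 to newly replicated DNA, lies on the plus strand of chromosome 17 from 56303321 to 56323486. It was listed at 0 counts in all 4 libraries, which allows up to 0.207 CPM in NSD1B WT and 0.215 CPM in NSD1B KO (3 counts over the 2 libraries, counting error only). A count of 0 throughout was common, since 71.1% of all listed genes and 50% of 21897 protein-coding genes had none in any library, and no direction can be given for this gene. Because UHRF1 and DNMT1 act at the replication fork, their transcripts are usually set beside genes of the cell cycle. Of 18 proliferation genes, 12 were tested, 2 were higher in NSD1B KO, 8 were lower and 2 were not called, with a median log2 fold change of -1.40 against -0.10 for all tested genes. The calls, 10 of 12, stand beside 78.2% of all tested genes, of which 37.1% were higher and 41.1% lower. *Mki67*, the proliferation antigen, had 19 and 24 counts in NSD1B WT and 0 in NSD1B KO, and *Cdk1*, the mitotic kinase, had 130 and 141 counts in NSD1B WT and 0 in NSD1B KO, at least 87.0-fold lower. *Mcm4* and *Mcm3*, subunits of the replicative helicase, were the higher genes of this list. *Mcm4* had 178 and 190 counts in NSD1B WT and 350 and 256 in NSD1B KO, and *Mcm3* had 0 in NSD1B WT and 30 and 19 in NSD1B KO.

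The promoters of *Dnmt1* and *Uhrf1* are shown because both genes are known to be transcribed as cells enter S phase and both windows hold the letters TTTCGCGC, a form of the site bound by E2F factors. The sequences run from 250 bases before to 50 bases after an annotated start, are credited to RefSeq (GRCm38.p6, the build of mm10), and are printed 5′ to 3′ on the strand of the gene, with each CpG, the target of DNA methylation, in capitals. Where RefSeq gave several starts, the one with the most CpG was taken.
Dnmt1 (chr9:20952574-20952873, minus strand): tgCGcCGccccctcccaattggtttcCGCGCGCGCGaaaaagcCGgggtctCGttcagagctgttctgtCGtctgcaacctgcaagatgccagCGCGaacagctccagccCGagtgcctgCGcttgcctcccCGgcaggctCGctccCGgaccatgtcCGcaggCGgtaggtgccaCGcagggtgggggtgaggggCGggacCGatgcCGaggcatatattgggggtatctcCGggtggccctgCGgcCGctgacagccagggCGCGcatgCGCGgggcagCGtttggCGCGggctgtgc
Uhrf1 (chr17:56304063-56304362, plus strand): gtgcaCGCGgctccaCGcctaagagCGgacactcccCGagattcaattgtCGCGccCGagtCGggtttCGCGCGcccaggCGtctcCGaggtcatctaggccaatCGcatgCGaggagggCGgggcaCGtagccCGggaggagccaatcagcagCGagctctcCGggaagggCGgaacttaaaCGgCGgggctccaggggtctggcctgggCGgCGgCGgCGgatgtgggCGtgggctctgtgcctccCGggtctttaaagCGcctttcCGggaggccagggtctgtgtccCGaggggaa
Each held 33 CpG, more than 91.4% of the 32851 promoters in the table, whose median was 7. The 2 windows were picked for their CpG, among 3 starts of *Dnmt1* and 2 of *Uhrf1*. The promoters they were ranked against were not, which raises this share. The 8 letters, searched on both strands and chosen after these sequences had been seen, lay 219 bases before the start of *Dnmt1* on the opposite strand and 185 bases before that of *Uhrf1* on the same strand, and 0.323% of all promoters held them. The match describes the sequence and says nothing on the binding of a factor, and the same letters were not found in the windows of *Dnmt3a*, *Dnmt3b*, *Tet1*, *Tet2* or *Tet3*.

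*Dnmt3a* (ENSMUSG00000020661.15), a de novo methyltransferase with a PWWP reader of H3K36 methylation, lies on the plus strand of chromosome 12 from 3806007 to 3914443. It had 22 and 20 counts in NSD1B WT and 115 and 97 in NSD1B KO. Both NSD1B KO libraries stood well above both NSD1B WT libraries, and the libraries of a genotype were close to each other. The level rose from 2.90 ± 0.242 CPM in NSD1B WT to 15.2 ± 1.10 CPM in NSD1B KO (mean ± SD, n = 2). The log2 fold change was 2.38 (95% interval 1.81 to 2.96, adjusted p = 2.41e-10, edgeR's quasi-likelihood test), or 5.21-fold. This was the largest estimated rise among the 9 genes, with an interval that overlapped that of *Mbd1* (1.77 to 2.38). The count covers the gene as a whole, so the long and the short form of DNMT3A, which start at different promoters, were not told apart. An antisense gene, Dnmt3aos, shares 133 bases of exon with it and had 1 count in 1 library. *Dnmt3b* (ENSMUSG00000027478.15), the second de novo enzyme, on the plus strand of chromosome 2 from 153649450 to 153687730, was listed at 0 in all 4 libraries, with the same limits as *Uhrf1*.

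The promoter of *Dnmt3a*, shown as that of the gene with the largest estimated rise, was denser in CpG than those of *Dnmt1* and *Uhrf1*. It held 47 CpG in 300 bases, more than 98.6% of promoters, a share raised in the same way by the choice among 3 starts.
Dnmt3a (chr12:3806910-3807209, plus strand): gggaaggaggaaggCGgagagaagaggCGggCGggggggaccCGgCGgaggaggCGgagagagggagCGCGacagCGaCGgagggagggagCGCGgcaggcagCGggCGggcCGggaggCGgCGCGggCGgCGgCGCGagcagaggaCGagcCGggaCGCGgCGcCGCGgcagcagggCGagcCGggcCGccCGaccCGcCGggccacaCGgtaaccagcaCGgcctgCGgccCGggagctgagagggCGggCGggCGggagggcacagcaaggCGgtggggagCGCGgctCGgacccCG

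With *Dnmt1* lower and *Dnmt3a* higher, the make-up of the detected methyltransferase counts turned over. *Dnmt1* held 81.8% (95% exact binomial interval 73.8% to 88.2%) and 81.0% (72.1% to 88.0%) of the counts of both genes in the NSD1B WT libraries. In the NSD1B KO libraries it held 15.4% (9.82% to 22.6%) and 26.5% (19.2% to 34.9%). The intervals cover counting error only. These shares are taken within a library, so they do not depend on how libraries were scaled, and the genotypes did not overlap. Divided by exon length, *Dnmt1* made up 91.0% and 90.6% of the pair in NSD1B WT and 29.2% and 44.9% in NSD1B KO. The sum of both genes, not divided by exon length, was 15.6 ± 1.82 CPM in NSD1B WT and 19.2 ± 0.510 CPM in NSD1B KO (mean ± SD, n = 2). Per kilobase of exon, *Dnmt1* went from 1.73 to 0.550 CPM and *Dnmt3a* from 0.174 to 0.912 CPM, a fall larger than the rise. The pair thus differed clearly in its make-up, while the direction of its total depends on whether exon length is taken into account.

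**Figure D2:**
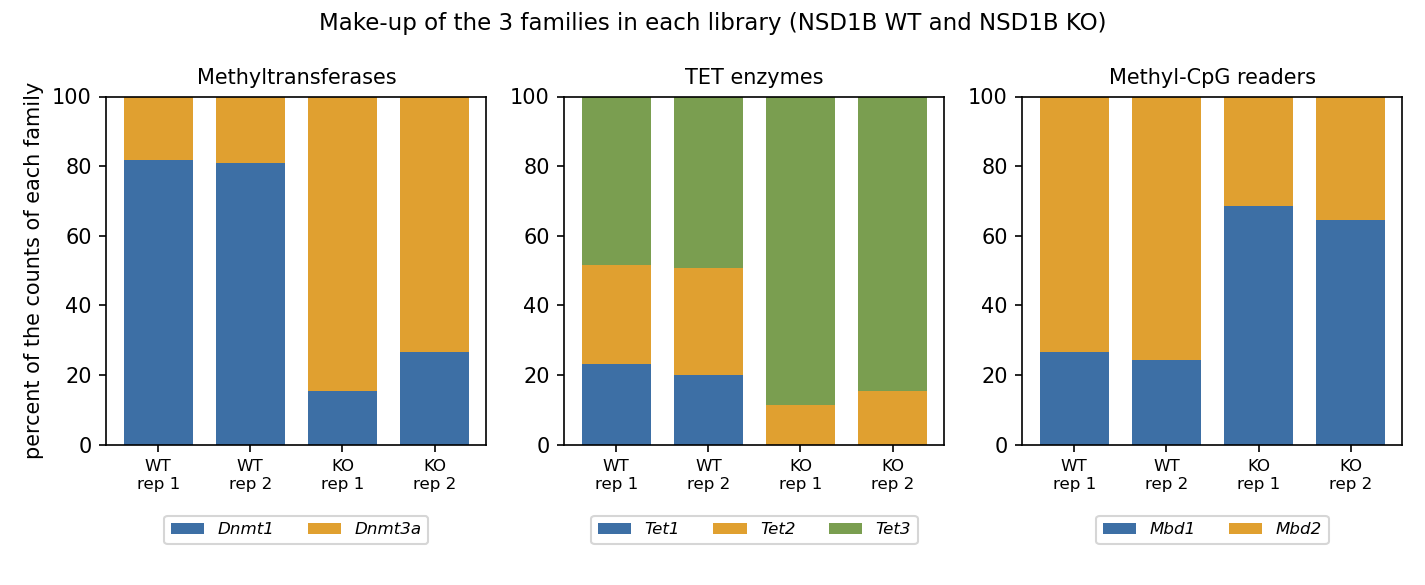
Stacked bars give, for each library, the percent of the counts of a family that each gene held, for *Dnmt1* and *Dnmt3a*, for *Tet1*, *Tet2* and *Tet3*, and for *Mbd1* and *Mbd2*. *Dnmt1* falls from over 80% to 15.4% and 26.5%, *Tet1* is missing in NSD1B KO, and *Mbd1* passes *Mbd2*.

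All 3 TET enzymes were lower in NSD1B KO, and they differed in how far they fell. Together they had 580 and 588 counts in NSD1B WT and 177 and 208 in NSD1B KO. The sum of their levels was 80.7 ± 0.517 CPM in NSD1B WT and 27.7 ± 4.47 CPM in NSD1B KO (mean ± SD, n = 2), a decrease of 65.6%.

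*Tet1* (ENSMUSG00000047146.17), a minus-strand gene of chromosome 10 between 62804570 and 62908996, had 135 and 118 counts in NSD1B WT and 0 in both NSD1B KO libraries. Set against 3 counts over the 2 libraries at 0, it was at least 81.3-fold lower in NSD1B KO (adjusted p = 1.37e-17, edgeR's quasi-likelihood test). Such a loss was not rare at this level. Of the 3590 genes whose NSD1B WT counts lay within 2-fold of those of *Tet1*, 12.9% were at 0 in both NSD1B KO libraries. *Tet2* (ENSMUSG00000040943.12), the TET gene most often mutated in blood cancers, is a minus-strand gene of chromosome 3, between 133463679 and 133545139. It had 164 and 181 counts in NSD1B WT and 20 and 32 in NSD1B KO. The groups were far apart, and again the NSD1B KO libraries differed more from each other. The level was 23.8 ± 1.28 CPM in NSD1B WT and 3.76 ± 1.40 CPM in NSD1B KO, a log2 fold change of -2.67 (95% interval -3.17 to -2.17, adjusted p = 1.49e-13, edgeR's quasi-likelihood test), or 6.35-fold lower. The antisense gene Gm42567, which shares 43 bases of exon with it, had 0 counts in every library.

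*Tet3* (ENSMUSG00000034832.15), a minus-strand gene of chromosome 6 between 83362373 and 83459084, was the most counted TET gene in every library. It had 281 and 289 counts in NSD1B WT and 157 and 176 in NSD1B KO. The groups did not overlap, and the gap between them was narrower than for the other TET genes. The level was 39.4 ± 0.148 CPM in NSD1B WT and 24.0 ± 3.07 CPM in NSD1B KO, and the log2 fold change was -0.72 (95% interval -1.01 to -0.43, adjusted p = 1.53e-05, edgeR's quasi-likelihood test), or 1.65-fold lower. Since it fell least, its share of the TET counts went up, from 48.4% and 49.1% in NSD1B WT to 88.7% and 84.6% in NSD1B KO. The exact binomial intervals of the NSD1B WT libraries reached up to 52.6% and 53.3%, and those of NSD1B KO down to 83.1% and 79.0%. *Tet2* went from 28.3% and 30.8% of the TET counts to 11.3% and 15.4%, and *Tet1* from 23.3% and 20.1% to 0%, where the exact binomial interval of 0 counts reached 2.06% of 177 and 1.76% of 208 counts.

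The promoters of *Tet1* and *Tet2* are shown, as those of the genes with the largest falls. They stood far apart in CpG content, with 17 CpG in *Tet1*, more than 68.6% of promoters, and 57 in *Tet2*, more than 99.8% of promoters.
Tet1 (chr10:62887275-62887574, minus strand): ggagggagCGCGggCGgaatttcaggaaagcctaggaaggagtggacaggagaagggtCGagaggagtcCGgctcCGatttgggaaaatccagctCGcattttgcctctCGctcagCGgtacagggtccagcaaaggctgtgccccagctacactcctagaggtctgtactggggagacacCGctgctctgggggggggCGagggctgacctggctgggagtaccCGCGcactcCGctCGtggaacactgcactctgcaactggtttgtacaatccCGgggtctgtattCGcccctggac
Tet2 (chr3:133544341-133544640, minus strand): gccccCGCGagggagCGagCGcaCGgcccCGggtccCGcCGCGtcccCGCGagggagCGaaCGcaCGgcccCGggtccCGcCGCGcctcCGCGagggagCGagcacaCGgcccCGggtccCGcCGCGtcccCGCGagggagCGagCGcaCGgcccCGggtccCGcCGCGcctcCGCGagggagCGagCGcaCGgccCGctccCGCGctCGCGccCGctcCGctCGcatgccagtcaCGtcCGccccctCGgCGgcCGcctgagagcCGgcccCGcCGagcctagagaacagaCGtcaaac

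The 2 methyl-CpG readers moved in opposite directions. *Mbd1* (ENSMUSG00000024561.11), which binds methylated CpG and works with the H3K9 methyltransferase SETDB1, lies on the plus strand of chromosome 18 from 74267605 to 74282732, a position taken from an earlier version of this identifier. It had 89 and 85 counts in NSD1B WT and 364 and 343 in NSD1B KO. The libraries of a genotype were nearly equal, and both NSD1B KO libraries lay high above the NSD1B WT libraries. The level rose from 12.03 ± 0.584 CPM to 50.7 ± 0.285 CPM (mean ± SD, n = 2), a log2 fold change of 2.08 (95% interval 1.77 to 2.38, adjusted p = 7.75e-17, edgeR's quasi-likelihood test), or 4.21-fold. *Setdb1*, its partner, had 209 and 215 counts in NSD1B WT and 52 and 73 in NSD1B KO, and was lower, at a log2 fold change of -1.70.

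*Mbd2* (ENSMUSG00000024513.16), the NuRD-bound reader, on the plus strand of chromosome 18 from 70568189 to 70626131, had 244 and 266 counts in NSD1B WT and 168 and 188 in NSD1B KO. The groups were separate but close. The level was 35.2 ± 1.58 CPM in NSD1B WT and 25.6 ± 3.25 CPM in NSD1B KO, and the log2 fold change was -0.46 (95% interval -0.76 to -0.17, adjusted p = 0.00389, edgeR's quasi-likelihood test), or 1.38-fold lower. This was the smallest change of the 7, and its call was lost under other processing. *Mbd2* was not called by the Wald test of DESeq2 (-0.45, adjusted p = 0.0610). Nor was it called by edgeR's quasi-likelihood test once the dependence on exon length and GC was taken out (-0.09, adjusted p = 0.571). Without NSD1B KO replicate 1, which leaves 1 library of that genotype, the log2 fold change was -0.34. *Mbd1* held 26.7% and 24.2% of the counts of both readers in NSD1B WT and 68.4% and 64.6% in NSD1B KO, with exact binomial intervals that ended at 31.8% and 29.0% and began at 64.3% and 60.4%.

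**Figure D3:**
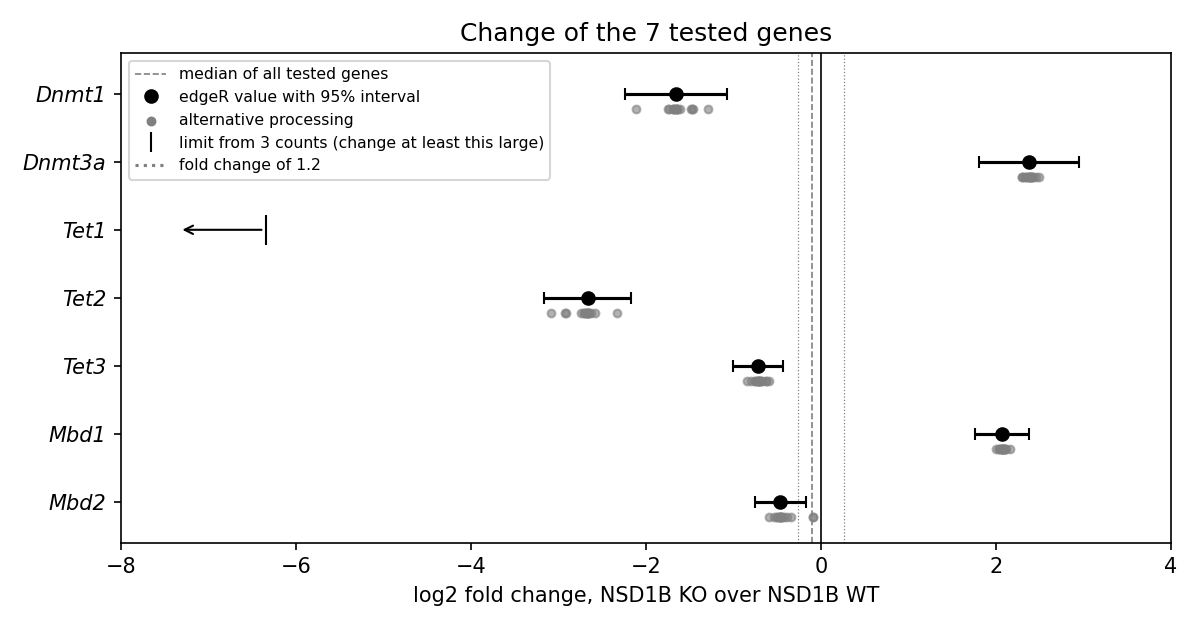
Log2 fold change of NSD1B KO over NSD1B WT for the 7 tested genes, with the 95% interval of the edgeR fit as a bar, grey points for alternative processing, a dashed line at the median of all tested genes and dotted lines at a fold change of 1.2. *Dnmt3a* and *Mbd1* lie above 1.2-fold throughout, *Tet1* is drawn as an arrow from its limit of 81.3-fold, and only *Mbd2* has grey points inside the dotted lines.

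Levels of different genes were compared per kilobase of exon. In NSD1B WT the order in CPM per kilobase was *Mbd2* (10.96), *Tet3* (2.36), *Mbd1* (1.79), *Dnmt1* (1.73), *Tet2* (1.41), *Tet1* (1.13) and *Dnmt3a* (0.174). *Mbd1* and *Dnmt1* overlapped between libraries, and the other neighbours did not. In NSD1B KO the order was *Mbd2* (7.97), *Mbd1* (7.57), *Tet3* (1.44), *Dnmt3a* (0.912), *Dnmt1* (0.550) and *Tet2* (0.223), in which *Mbd2* and *Mbd1* overlapped between libraries. *Dnmt3a* thus moved from the last place among the genes with counts to above *Dnmt1* and *Tet2*, and *Mbd1* drew level with *Mbd2*.

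The wider pathway was read from 6 lists of 75 genes in all, described here by counts. The count of each single list is to be read against the 37.1% higher and 41.1% lower of all tested genes, and nothing particular to a list is drawn from it. Tests were possible for 59, of which 20 were higher and 30 lower in NSD1B KO, together 84.7%, near the 78.2% of all tested genes. Among 12 maintenance and targeting partners, 9 were tested, 2 were higher, 6 were lower and 1 was not called. *Uhrf2*, the paralog of *Uhrf1*, had 39 and 42 counts in NSD1B WT and 464 and 459 in NSD1B KO, a rise of 3.56 ± 0.17 on the log2 scale (estimate ± standard error, adjusted p = 4.52e-24, edgeR's quasi-likelihood test). *Dmap1*, a partner of DNMT1, had 42 and 36 counts in NSD1B WT and 0 in NSD1B KO, at least 25.1-fold lower. *Pcna*, the replication clamp that binds DNMT1, was the most counted and was not called, at 191 ± 2.19 CPM in NSD1B WT and 217 ± 4.87 CPM in NSD1B KO. *Trim28*, a corepressor named after its values were seen, had 399 and 422 counts in NSD1B WT and 1 and 5 in NSD1B KO, 127-fold lower, more than the limit for *Dmap1*.

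Among 20 genes of active demethylation and base excision repair, 14 were tested, 4 were higher and 8 were lower. *Mbd4*, a thymine glycosylase with a methyl-CpG binding domain, had 0 in NSD1B WT and 42 and 41 counts in NSD1B KO, at least 28.7-fold higher. *Ogt*, the glycosyltransferase that binds TET enzymes, was the most counted and was not called (log2 fold change 0.13, standard error 0.08). *Tdg*, the glycosylase that removes the products of TET, had 0 to 3 counts per library and was not tested.

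Of 12 other methyl-CpG and MBD proteins, 11 were tested, 5 were higher and 4 were lower. *Mbd5* had 0 in NSD1B WT and 62 and 42 counts in NSD1B KO, at least 35.8-fold higher. *Mbd6* had 61 and 59 counts in NSD1B WT against 0 and 2 in NSD1B KO, a ratio of 57.8 (95% counting interval 15.7 to 483). *Baz2b*, the most counted of this list, was lower at -0.93 (standard error 0.10). Of 13 NuRD subunits, the complex that holds MBD2, 11 were tested, 3 were higher and 5 were lower. Its ATPase *Chd4* had 373 and 337 counts in NSD1B WT and 111 and 94 in NSD1B KO (log2 fold change -1.74), its deacetylase *Hdac2* had 210 and 196 against 711 and 594 (1.74), and *Rbbp7*, the most counted, was at -0.64.

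Of 12 genes of the S-adenosylmethionine cycle, which supplies the methyl group, 8 were tested, 3 were higher and 5 were lower. *Mat2b*, the regulatory subunit of the synthetase and the most counted, had 1838 and 1872 counts in NSD1B WT and 715 and 601 in NSD1B KO (log2 fold change -1.44, standard error 0.09). *Shmt1*, of folate metabolism, had 58 and 38 counts in NSD1B WT and 0 in NSD1B KO, at least 30.9-fold lower. *Mtr*, methionine synthase, named after its values were seen, had 130 and 130 counts in NSD1B WT and 5 and 2 in NSD1B KO. Its log2 fold change was -5.11 (95% interval -5.90 to -4.33), or about 34.6-fold lower, and rests on few NSD1B KO counts. *Mtrr*, the methionine synthase reductase, had 1 and 0 counts in NSD1B WT and 109 and 82 in NSD1B KO, a ratio of 198 (95% counting interval 35.2 to 7873). The 6 H3K36 methyltransferases, whose mark DNMT3A reads, were 3 higher, 2 lower and 1 not called. *Nsd1* itself had 497 and 480 counts in NSD1B WT and 284 and 280 in NSD1B KO (log2 fold change -0.74), a weak check of the labels, because the counts cover the whole gene and not the 3 floxed exons alone. *Setd2* and *Nsd3* were higher, at 0.91 and 1.02, and *Smyd2*, with 169 and 172 counts in NSD1B WT, was at 0 in NSD1B KO, at least 109-fold lower.

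**Figure D4:**
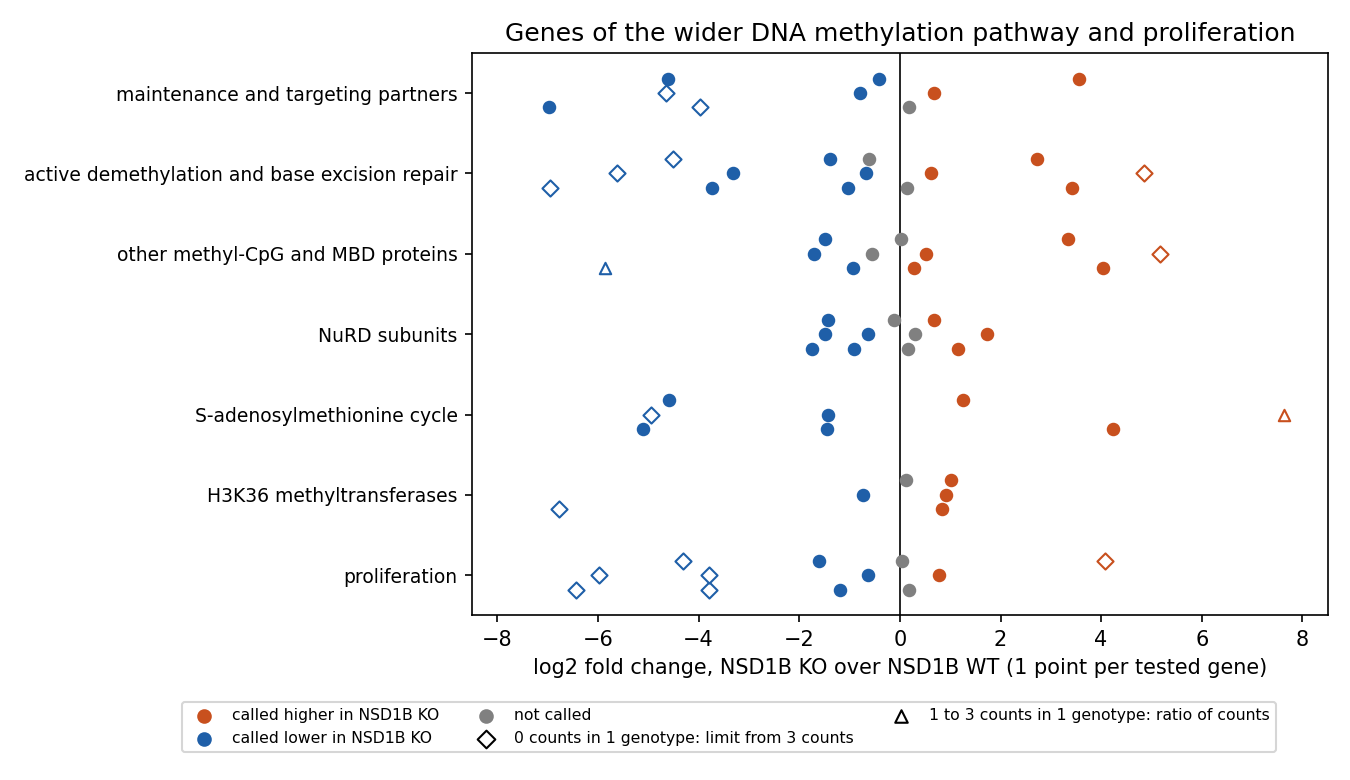
Log2 fold change of NSD1B KO over NSD1B WT for each tested gene of the 6 pathway lists and the proliferation list, coloured by its call. Higher and lower genes stand side by side in every list, diamonds mark the limit of genes at 0 in 1 genotype, and triangles mark genes with 1 to 3 counts in 1 genotype.

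As a readout on the transcript side, 22 germline genes that promoter methylation silences in somatic tissues were examined. Of these, 17 had no count in any library, among them *Dazl*, *Mael*, *Sycp3* and *Taf7l*. By comparison, 50% of protein-coding genes had none. Only 4 could be tested, of which 1 was higher and 3 were lower, beside 78.2% of all tested genes called and 11.1% of well counted NSD1B WT genes at 0 in NSD1B KO. *Stra8*, which starts meiosis, had 0 in NSD1B WT and 35 and 57 counts in NSD1B KO, at least 32.1-fold higher, while *Syce1*, *Ddx4* and *Brdt* were counted in NSD1B WT alone. *Syce1*, of the synaptonemal complex, had 93 and 122 counts in NSD1B WT, at least 68.9-fold lower in NSD1B KO. *Ddx4*, a germ cell helicase, had 42 and 30 counts, and *Brdt*, a testis bromodomain protein, had 50 and 26. In sum the list had 25.2 CPM in NSD1B WT and 6.66 CPM in NSD1B KO.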

How the data were processed

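RNA of B220+ splenic B cells was sequenced by the authors as paired-end reads, which were mapped to mm10 with Bowtie2. The deposited values are whole-number counts per gene, not normalized. For the step from alignments to counts, program, annotation and use of strand were not given in the sources used here. Closing lines that name no gene held 58.0% to 60.0% of each total and stayed out of library sizes. The FPKM of the Methods were not used here.

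Of 55401 identifiers, 55141 matched GENCODE M21, which gave positions and exon lengths. Genes were kept by filterByExpr (minimum count 10, minimum total 15), scaled by TMM and compared by the quasi-likelihood test of edgeR 4.0.16 (R 4.3.3) over 2 libraries against 2, with Benjamini-Hochberg adjustment over all tested genes. Libraries were grouped by their labels. The limits follow the Methods (fold change above 1.2, p below 0.05), with p taken as adjusted. An exact permutation test of 2 libraries against 2 cannot reach 0.05 and was not made. A gene at 0 in a genotype was set to 3 counts over its 2 libraries. For a gene with 1 to 3 counts, a ratio with an exact 95% interval was computed. Alternatives were DESeq2 1.42.0, limma-voom (limma 3.58.1), other scalings and filters, libraries left out, a replicate block, and a loess trend (span 0.5) with exon length and GC content. The procedure was run on simulated counts in which only a small part of the genes changed. That run does not bear on a comparison in which 78.2% of tested genes are called.

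The 9 genes and all lists were chosen with earlier results of these data known. Beyond the 9, the genes named are the most counted of each list and its first called rise and fall by fitted fold change among genes with a mean of at least 10 counts in a genotype, and *Nsd1*. A fitted fold change against 0 counts depends on the prior count, so this order picks names and is no ranking of the limits printed. *Trim28*, *Mtr*, *Setdb1*, *Tdg*, *Mki67*, *Ddx4*, *Brdt*, the germline genes named at 0 and the markers named singly fall outside this rule and were named after their values were seen. Some genes of the lists are not reported here singly.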

Additional observations from a re-analysis of the deposited data

How the results depend on the processing

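Over 15 alternative fits (13 for *Tet1*, which 2 filters removed), *Dnmt1*, *Dnmt3a*, *Tet1*, *Tet2*, *Tet3* and *Mbd1* kept direction and call, with adjusted p of at most 0.00575. *Mbd2* kept its direction and lost its call in 4, at -0.34 without NSD1B KO replicate 1, -0.45 by DESeq2, and -0.09 once length and GC were adjusted for, both without and with the replicate block. At stricter limits (adjusted p 1e-05, log2 fold change 0.5 in size), *Tet3* and *Mbd2* were not called, and 2 higher and 3 lower genes were left, 5 of 7 against 57.2% of all tested genes.

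With each library left out in turn, all 7 tested genes kept their direction. Such a fit leaves 1 library in a genotype, so its spread comes from the other genotype alone and its calls carry little weight. A filter of 1 CPM in all 4 libraries, which removes genes at 0 in a genotype, left 5846 called of 8334 tested genes in place of 9118 of 11657. In the pathway lists it left 29 called genes in place of 50. A filter of 1 count in each library, chosen after genes at 0 had been seen, moved the median of all genes by 0.11 on the log2 scale, and changed no call of the members it kept.

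Same-numbered libraries are not stated to be paired, and their deviations correlated at 0.06 over 7927 genes. With the replicate number as a block, 7 of the genes were called, as in the main fit, in which 78.2% of all tested genes were called. The log2 fold changes of *Dnmt1* and *Dnmt3a* with the block were -1.66 and 2.38.

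At 20 to 35 counts, as for *Dnmt3a* in NSD1B WT and for *Dnmt1* and *Tet2* in NSD1B KO, counting error limits the fold change.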
